A study of Rattus norvegicus with 6 samples.

Results

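Amino acid and neurotransmitter transporters were examined in ShSuz12 and ShControl cells. Both populations come from IEC-6, a line of normal rat intestinal cells that resembles undifferentiated crypt cells. The members were all probe sets annotated to exactly 1 gene symbol of solute carrier (Slc) families 1, 3, 6, 7, 17, 18, 32, 36, 38 or 43. This rule gave 82 of the 31042 probe sets tested, for 61 of 14217 genes. Of the 61 genes, 48 had 1 probe set and 13 had several, up to 5 for Slc6a17.

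ShSuz12 cells had been infected with a lentivirus that encodes a short hairpin RNA (shRNA) against Suz12, a subunit of the Polycomb Repressive Complex 2 (PRC2), which methylates histone H3 on lysine 27. ShControl cells carried a scrambled hairpin, and both were selected with puromycin, so that each group was 1 selected population and Suz12 depletion rested on 1 hairpin. The labels name no other treatment. RNA from 3 independent experiments for each population was hybridized to 6 Affymetrix arrays, and no source used here gives the cell density at RNA isolation. The hairpin matches this stretch of the Suz12 messenger, shown because it is what separates the groups:
Suz12 target: gctgacaatcaaatgaatcat

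The Suz12 probe set had RMA values (robust multi-array averaging, log2 scale) of 8.45, 8.55 and 8.77 on the ShControl arrays and of 5.82, 5.77 and 5.91 on the ShSuz12 arrays. The median RMA value of an array was 6.16 to 6.18 for ShControl and 6.27 to 6.28 for ShSuz12. A percentile of a probe set here is the rank of its group mean among the means of all probe sets in that group. It depends on the probes as well as on the RNA, so that percentiles of different genes do not rank their levels. Of 10 markers of intestinal epithelium, Cdh1 lay at percentile 99.3 of the ShControl values, Krt8 at 90.2 and Cldn3 at 55.4. The other 7 lay below the array median, from 5.75 for Epcam to 42.9 for Cdx1, with Krt18 at 8.04 and Vil1 at 27.6.

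Transporters of these families move amino acids and related small molecules across membranes. At the plasma membrane, cotransporters such as those of families 1, 6 and 38 use sodium to load cells with amino acids, while the family 7 light chains pair with a family 3 heavy chain and exchange one amino acid for another. In neurons, family 6 carriers take serotonin, GABA and glycine back up after release, and families 17, 18 and 32 fill synaptic vesicles with glutamate, monoamines, acetylcholine or GABA. In the gut, such transporters absorb amino acids from the diet and clear serotonin released by enteroendocrine cells.

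Calls required an adjusted p under 0.05 (limma, Benjamini-Hochberg over all probe sets) together with a difference of at least 2-fold. The genes with such a probe set were all higher in ShSuz12 cells: Slc6a15, Slc6a4, Slc17a6, Slc43a1, Slc6a17 and Slc43a2. In all, 6 of the 82 probe sets (7.32%) were called higher, against 3.10 percent of all probe sets, and 0 were called lower, against 0.396 percent. None of them was lower by 2-fold, so the count of 0 held by the methods' t-test too, while 14 probe sets were lower at an unadjusted p under 0.05 in limma, against 25.9 percent of all probe sets. By the brightest probe set of each gene, 4 of 61 genes (6.56%) were called higher, against 3.82 percent of all genes, and 0 lower, against 0.422 percent. Without the 2-fold limit, 18 probe sets were higher and 9 lower, against 14.8 and 19.5 percent of all probe sets. The split turned to 13 higher and 22 lower once each array's median was subtracted. The shares of all probe sets at that setting were not counted, so the turn cannot be read as particular to the members. As deposited, 13 genes were higher and 4 lower by adjusted p at the brightest probe sets, against 17.1 and 23.3 percent of all genes. The groups did not overlap at 21 probe sets that were higher and 15 that were lower, against 19.4 and 28.1 percent of all probe sets, and for 16 genes that were higher and 8 that were lower, against 22.2 and 33.4 percent of all genes. The median log2 fold change was -0.02 over the members and -0.05 over all probe sets. That subtraction took them to -0.12 and -0.15, a shift of about the size of many of the smaller differences given here. It moved differences downward, further from the centre, so at that setting rises pass less easily and falls more easily. In bulk RNA a change in the share of cells that express a gene and a change per cell cannot be told apart.

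**Figure D1:**
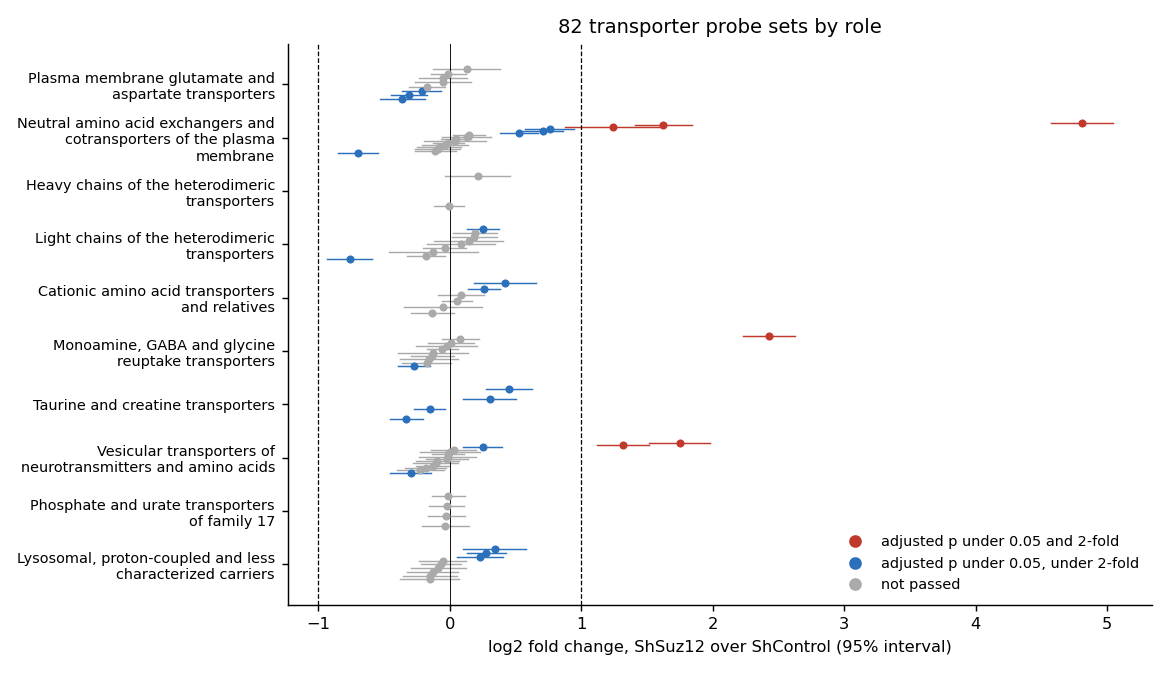
The log2 difference between ShSuz12 and ShControl means (n = 3 arrays a group) for all 82 transporter probe sets by role, with the 95% interval from limma as a line. Red points passed both limits, blue points passed the adjusted p alone, and the 2-fold limits are dashed. The 6 red points lie at 1.24 to 4.81, in the rows of neutral amino acid, reuptake and vesicular transporters, and no point lies below -0.76.

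Slc6a15 (B0AT2), a sodium-dependent neutral amino acid transporter mostly of brain, had the largest difference among the members. Its probe set 1387968_at had RMA values of 3.28, 3.71 and 3.41 on the ShControl arrays against 8.29, 8.29 and 8.25 on the ShSuz12 arrays. All ShSuz12 values lay far above all ShControl values, and the probe set moved from percentile 5.10 to percentile 75.0 of the group means. The log2 difference was 4.81 (standard error, SE, 0.10, limma adjusted p = 3.33e-08). One filter kept probe sets above each array's 60th percentile on at least 2 arrays of either group. Slc6a15 stayed tested and called there through its ShSuz12 values only, so this filter adds no support. The other called probe sets were no longer tested.

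Slc43a1 (LAT3) and Slc43a2 (LAT4) are facilitative carriers of large neutral amino acids such as leucine and phenylalanine. Slc43a1 had RMA values of 4.43, 4.80 and 4.51 in ShControl against 6.17, 6.26 and 6.20 in ShSuz12 samples, with a log2 difference of 1.62 (SE 0.09, adjusted p = 7.50e-06). Both groups stayed below the array median, at percentiles 27.6 and 49.3. Slc43a2 was measured by a pair of probe sets that both rose. The dimmer, 1384756_at, had RMA values of 5.58, 5.65 and 5.01 against 6.65, 6.56 and 6.75, a log2 difference of 1.24 (SE 0.16, adjusted p = 5.47e-04). The brighter, 1379736_at, rose by 0.71 (SE 0.07, adjusted p = 9.81e-05), which is under 2-fold. ShControl replicate 3 was low at the dimmer probe set, and the groups did not overlap at either.

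Slc6a4 (SERT), the serotonin reuptake transporter, was the reuptake carrier that changed by 2-fold. It had RMA values of 4.32, 4.66 and 4.56 in ShControl against 6.93, 6.94 and 6.95 in ShSuz12 samples, with a log2 difference of 2.43 (SE 0.09, adjusted p = 4.49e-07). The ShSuz12 arrays were almost equal to each other and lay at percentile 58.2. By adjusted p, 17.1 percent of all genes were higher and 23.3 percent lower. Of the 7 reuptake transporters for monoamines, GABA and glycine, 6 did not pass by their brightest probe set. At those probe sets the log2 differences ran from -0.18 for Slc6a2, the noradrenaline transporter, to 0.08 for Slc6a3, the dopamine transporter (both named after their values were seen). The glycine transporter Slc6a9, also named after its values were seen, with 0.01 at its brightest probe set, fell by 0.27 at another (adjusted p = 0.00520).

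Slc17a6 (VGLUT2) loads glutamate into synaptic vesicles. Its RMA values were 4.74, 5.11 and 5.10 in ShControl samples and 6.77, 6.73 and 6.69 in ShSuz12 samples, with a log2 difference of 1.75 (SE 0.10, adjusted p = 6.91e-06). The probe set moved from percentile 34.4 to 55.6, with no overlap between the groups. Slc17a7 (VGLUT1), its closest relative on the array and named after its values were seen, had log2 differences of 0.00 and -0.01 at its 2 probe sets (adjusted p = 0.994 and 0.887).

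**Figure D2:**
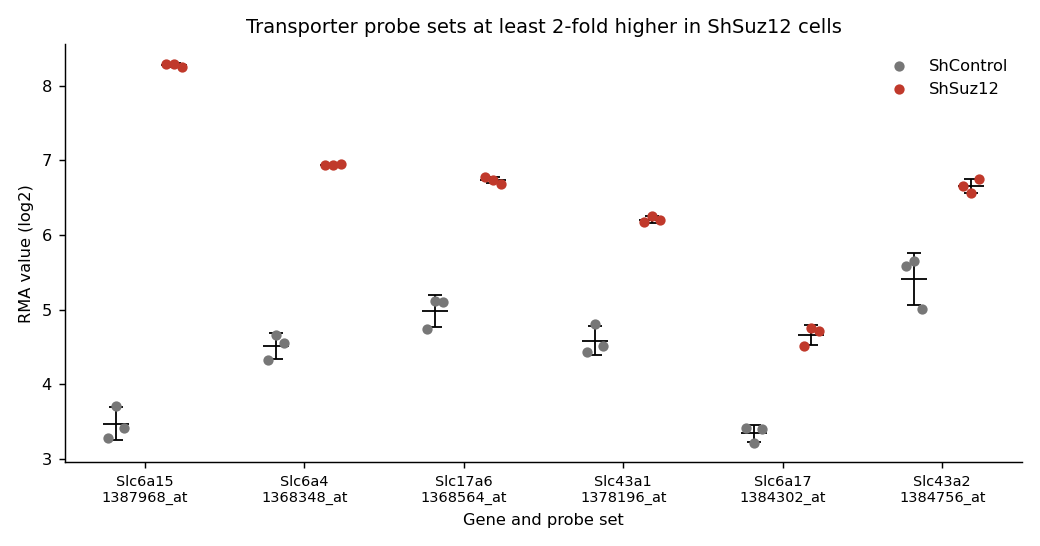
RMA value (log2) on each array for the 6 transporter probe sets called higher. Grey points are ShControl arrays, red points ShSuz12 arrays, and black bars give means with SD over 3 arrays. The groups do not overlap at any of the 6, and the gap between means runs from 1.24 for Slc43a2 to 4.81 for Slc6a15.

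Slc6a17 (NTT4), a neutral amino acid transporter of synaptic vesicles, was called at 1 of its 5 probe sets. At 1384302_at the RMA values were 3.42, 3.21 and 3.40 in ShControl samples and 4.51, 4.76 and 4.72 in ShSuz12 samples, with a log2 difference of 1.32 (SE 0.09, adjusted p = 1.53e-05). These values lay at percentile 2.99 in ShControl, among the lowest of the array, and at 28.4 in ShSuz12. The dim probe set 1384303_s_at had a log2 difference of 0.25 (adjusted p = 0.0179). The 3 brighter ones had values of -0.11, -0.18 and -0.10 (adjusted p = 0.310, 0.0714 and 0.348), and the mean of all 5 had 0.24 (adjusted p = 0.00217). The probe sets of Slc6a17 thus had no common direction, and those marked _s_at can match more than 1 transcript.

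Other vesicular transporters did not reach 2-fold. Slc18a3, which loads acetylcholine, fell by 0.30 (adjusted p = 0.00995), from RMA values of 5.09, 5.10 and 4.96 to 4.80, 4.81 and 4.66, all below the array median. Slc18a2 (VMAT2), which loads monoamines, had -0.02, 0.03 and -0.13 at its 3 probe sets (adjusted p = 0.858, 0.788 and 0.102). Slc32a1, which loads GABA and glycine, had a log2 difference of -0.22 (adjusted p = 0.0556) from percentile 9.10 of the ShControl means.

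Promoters were taken from RefSeq on GRCr8, as 250 bases before to 50 after the start of each gene, and 47 of the 61 genes were matched, with 51 promoters. PRC2 is known to bind CpG-rich promoters of silent developmental genes. The arrays hold no chromatin data, so the following counts describe sequence and not PRC2 binding. The median number of CG dinucleotides was 14 in the promoters of members and 7 in all 33469 promoters of the table. At least 10 were present in 35 of the 51 (68.6%), against 41.5% of all promoters. These shares count promoters and not genes: Slc1a3 entered by several overlapping windows with 12 each, and Slc1a2 and Slc3a2 by more than 1 promoter. The promoters of the table were not limited to genes on the array, so the shares are not like for like. Over all 300 bases, Slc17a6 had 11, Slc43a1 had 13, Slc43a2 had 17 and Slc6a17 had 30 among the called genes. Slc6a15 and Slc6a4, the called genes with the largest rises, had no promoter in the table, so neither counts nor sequences cover them. Slc7a5 and Slc1a4, the members with the largest falls, had 42 and 21. In the 250 bases before the start alone, these 6 genes had 9, 11, 13, 21, 31 and 14 in the same order. The bases before the start are shown for these 6 genes, since they are the called genes with a promoter in the table and the largest falls, 5′ to 3′ on the gene's strand with each CG in capitals:
Slc17a6 (GRCr8 chr1:110348197-110348446, plus strand): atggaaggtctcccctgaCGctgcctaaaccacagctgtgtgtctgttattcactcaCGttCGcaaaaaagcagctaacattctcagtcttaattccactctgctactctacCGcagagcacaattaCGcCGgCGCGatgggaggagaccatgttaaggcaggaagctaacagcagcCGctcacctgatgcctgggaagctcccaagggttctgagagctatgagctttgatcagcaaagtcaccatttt
Slc43a1 (GRCr8 chr3:90327072-90327321, plus strand): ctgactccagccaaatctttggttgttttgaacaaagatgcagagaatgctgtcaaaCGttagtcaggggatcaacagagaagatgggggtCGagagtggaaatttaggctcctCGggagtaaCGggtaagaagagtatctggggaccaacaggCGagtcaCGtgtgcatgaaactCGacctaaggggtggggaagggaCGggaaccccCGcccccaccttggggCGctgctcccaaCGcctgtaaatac
Slc43a2 (GRCr8 chr10:60874588-60874837, plus strand): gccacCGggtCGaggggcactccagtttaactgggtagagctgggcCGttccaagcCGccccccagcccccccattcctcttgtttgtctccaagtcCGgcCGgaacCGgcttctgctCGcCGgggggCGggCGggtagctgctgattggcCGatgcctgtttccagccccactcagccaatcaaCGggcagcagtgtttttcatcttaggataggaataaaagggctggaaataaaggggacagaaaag
Slc6a17 (GRCr8 chr2:197843884-197844133, minus strand): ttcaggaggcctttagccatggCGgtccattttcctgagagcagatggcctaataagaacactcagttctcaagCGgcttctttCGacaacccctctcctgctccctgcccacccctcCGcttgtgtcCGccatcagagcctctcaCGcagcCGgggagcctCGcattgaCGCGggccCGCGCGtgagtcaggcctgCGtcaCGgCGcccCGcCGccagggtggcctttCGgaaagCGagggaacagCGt
Slc7a5 (GRCr8 chr19:66872413-66872662, minus strand): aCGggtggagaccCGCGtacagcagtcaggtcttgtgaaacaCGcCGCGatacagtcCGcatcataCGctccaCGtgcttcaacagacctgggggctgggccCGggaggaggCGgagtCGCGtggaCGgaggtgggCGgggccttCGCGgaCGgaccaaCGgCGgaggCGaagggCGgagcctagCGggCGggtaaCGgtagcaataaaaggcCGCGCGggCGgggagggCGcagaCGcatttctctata
Slc1a4 (GRCr8 chr14:98761563-98761812, minus strand): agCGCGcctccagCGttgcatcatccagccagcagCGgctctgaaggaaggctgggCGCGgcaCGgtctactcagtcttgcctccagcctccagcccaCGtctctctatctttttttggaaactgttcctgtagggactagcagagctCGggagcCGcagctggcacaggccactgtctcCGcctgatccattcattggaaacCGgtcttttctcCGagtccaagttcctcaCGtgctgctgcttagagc

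Slc7a5 (LAT1), the light chain that exchanges large neutral amino acids such as leucine, had the largest fall of the members. Its RMA values were 9.45, 9.49 and 9.29 in ShControl samples and 8.75, 8.62 and 8.58 in ShSuz12 samples. The groups did not overlap, and the log2 difference was -0.76 (SE 0.07, adjusted p = 1.41e-04), a fold of 1.69. Slc3a2 (4F2hc), the heavy chain with which Slc7a5 reaches the cell surface, had RMA values of 11.14, 11.10 and 11.10 against 11.11, 11.10 and 11.11. Its log2 difference was -0.01 with a 95% interval of -0.12 to 0.10 (adjusted p = 0.919). The other heavy chain, Slc3a1, named after its values were seen, had 0.21 (adjusted p = 0.169). Among all genes 17.1 percent were higher and 23.3 percent lower by adjusted p. Of the 9 light chains measured, 1 other passed the adjusted p. It was Slc7a6, which exchanges cationic for neutral amino acids and rose by 0.25 (adjusted p = 0.00732). The cystine and glutamate exchanger Slc7a11 (xCT), named after its values were seen, had a value of -0.18 (adjusted p = 0.0568).

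Slc1a4 (ASCT1), a neutral amino acid exchanger for alanine, serine and cysteine, fell by 0.70 (SE 0.07, adjusted p = 1.20e-04), from RMA values of 10.06, 10.21 and 9.99 to 9.39, 9.36 and 9.41. Slc1a5 (ASCT2), its close relative for glutamine, named after its values were seen, had a log2 difference of 0.05 with a 95% interval of -0.07 to 0.16. Among all genes 17.1 percent were higher and 23.3 percent lower by adjusted p. Of the 4 glutamate and aspartate transporters 0 passed by their brightest probe set in limma. Over their 8 probe sets 0 were higher and 3 lower by adjusted p, against 14.8 and 19.5 percent of all probe sets. The dimmer Slc1a2 probe set, named after its values were seen, fell by 0.21 (adjusted p = 0.0329), below the array median. Among these transporters, Slc1a3 (GLAST) lay at percentile 98.7 of the ShControl means. Its brightest probe set had RMA values of 12.08, 12.07 and 11.96 against 11.87, 11.80 and 11.91, a log2 difference of -0.17 (adjusted p = 0.0555), and the others fell by 0.31 and 0.36 (adjusted p = 0.00450 and 0.00685). The groups were separate at all 3 Slc1a3 probe sets, with differences well under 2-fold. Whether the brightest passed the adjusted p depended on the setting. It passed in limma with trend and robust eBayes (adjusted p = 0.00320) and with array medians subtracted (adjusted p = 0.00734), among others. By the methods' t-test it did not (adjusted p = 0.0803, unadjusted p = 0.0260). A p under 0.05 came in 7 of 15 alternatives, which count that unadjusted p and the mean over all Slc1a3 probe sets.

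Sodium-coupled carriers of family 38, which bring glutamine and other small neutral amino acids into the cell, moved unequally. Slc38a5 rose by 0.76 (SE 0.08, adjusted p = 2.09e-04), from RMA values of 4.93, 4.69 and 4.76 to 5.62, 5.59 and 5.44, below the array median in both groups. At the brightest of 3 probe sets Slc38a1 rose by 0.53 (adjusted p = 4.34e-04), from 8.99, 9.18 and 9.02 to 9.56, 9.62 and 9.58. Its dimmer probe sets had 0.13 and -0.09 (adjusted p = 0.266 and 0.376). Slc38a2, at percentile 98.2 in both groups, had RMA values of 11.70, 11.77 and 11.74 against 11.71, 11.71 and 11.75, with a log2 difference of -0.01 (95% interval -0.13 to 0.11). Of the 13 neutral amino acid carriers of the plasma membrane outside the light chains, 5 rose, 1 fell and 7 did not pass at an adjusted p under 0.05 by their brightest probe set, beside 17.1 percent of all genes higher and 23.3 percent lower.

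Slc6a8, the creatine transporter, rose by 0.45 and 0.30 at its probe sets (adjusted p = 0.00252 and 0.0307). At the second of these the adjusted p was lost in 5 of the 6 fits without 1 array (up to 0.0967), with array medians subtracted (0.0989) and by the methods' t-test (0.118). Slc6a6, the taurine transporter, fell by 0.33 at the dimmer (adjusted p = 0.00235) and by 0.15 at the brighter (adjusted p = 0.04998), the latter from RMA values of 11.35, 11.42 and 11.35 to 11.20, 11.23 and 11.23. The brighter Slc6a6 probe set lay at the threshold and missed it whichever of the 6 arrays was left out (adjusted p = 0.0751 to 0.133). Slc7a1 (CAT1), which imports arginine and lysine, rose by 0.26 at the brightest and by 0.42 at another of 3 probe sets (adjusted p = 0.00598 and 0.0147), while the dimmest had -0.05 (adjusted p = 0.793). It was the 1 of 4 cationic amino acid transporters that passed by its brightest probe set. Among all genes 17.1 percent were higher and 23.3 percent lower by adjusted p.

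**Figure D3:**
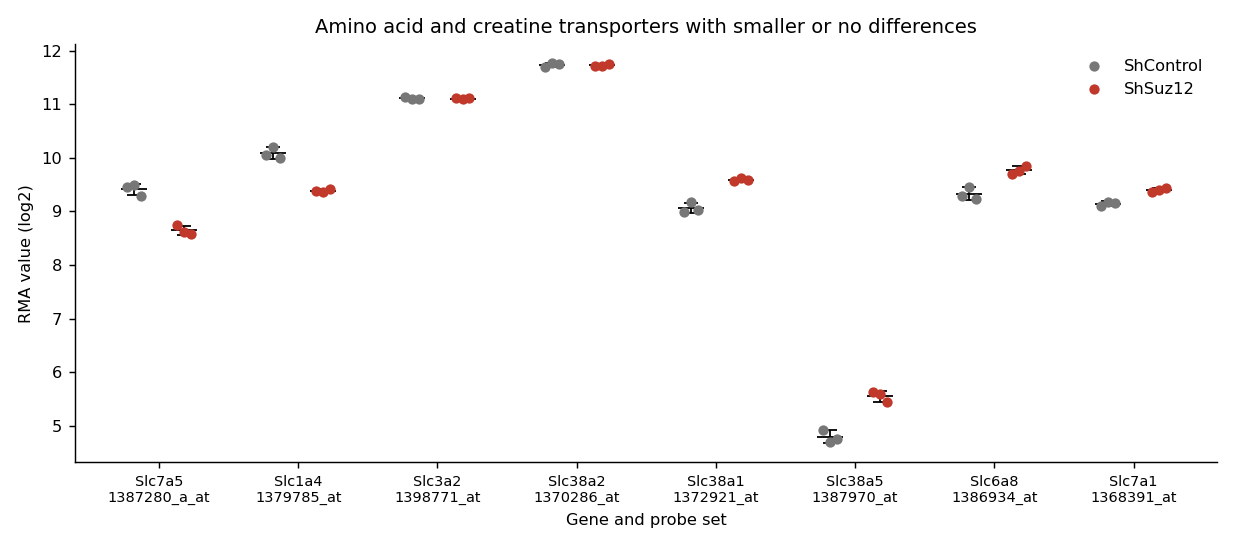
RMA value (log2) on each array for 8 amino acid and creatine transporters by their brightest probe set. Grey points are ShControl arrays, red points ShSuz12 arrays, and black bars give means with SD over 3 arrays. Slc7a5 and Slc1a4 are lower and Slc38a1, Slc38a5, Slc6a8 and Slc7a1 higher with no overlap, all by less than 2-fold, and the groups overlap for Slc3a2 and Slc38a2.

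Lysosomal, proton-coupled and less characterized carriers had 3 of 9 genes higher and 0 lower at an adjusted p under 0.05, against 17.1 and 23.3 percent of all genes. Slc38a9, which senses lysosomal arginine for mTORC1, had a log2 difference of 0.34 (adjusted p = 0.0348), Slc17a5, the sialic acid exporter, 0.28 (adjusted p = 0.0109), and Slc38a7, a lysosomal glutamine and asparagine transporter, 0.23 (adjusted p = 0.0491). With array medians subtracted, all of these missed the threshold (adjusted p = 0.0822, 0.0505 and 0.176). Slc38a7 also missed it in 5 of the 6 fits without 1 array, and Slc38a9 in 3 of the 6. Slc36a1, a proton-coupled amino acid exporter, had a value of -0.15 (adjusted p = 0.232). The phosphate and urate carriers Slc17a1 to Slc17a4 had values from -0.03 to -0.01 and overlapping groups.

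**Figure D4:**
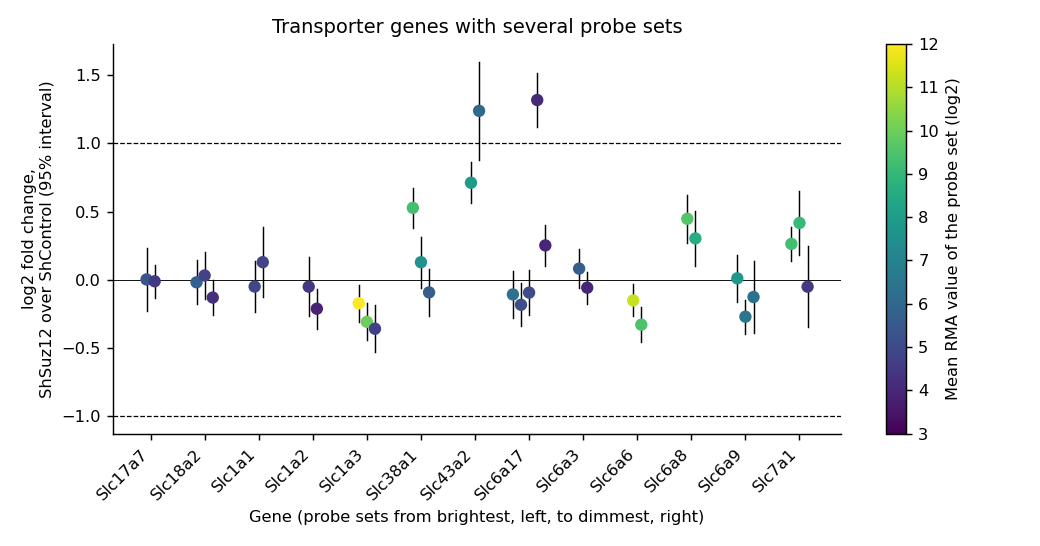
The log2 difference between ShSuz12 and ShControl means at each probe set of the 13 transporter genes with several, ordered from brightest to dimmest within a gene and coloured by the mean RMA value, with the 95% interval from limma as a line. Slc43a2 and Slc6a8 are higher and Slc1a2, Slc1a3 and Slc6a6 lower at each probe set, while those of Slc6a17 span 1.503 on the log2 scale. At the brighter Slc1a2 probe set the interval runs from -0.27 to 0.16.

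For genes with several probe sets, all passed the adjusted p in 1 direction for Slc43a2 and Slc6a8 (both higher) and Slc6a6 (both lower). At 1 probe set each of Slc6a8 and Slc6a6, the adjusted p missed the threshold under the settings given above. Over the 13 genes the span between probe sets ran from 0.01 for Slc17a7 to 1.503 for Slc6a17. Of the members, 51 of the 82 probe sets lay below the array median in both groups and 27 above it in both. RMA values have no true zero and give no detection call, so a difference at such levels may understate the change. No test compared levels between genes.

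Genes that act with these transporters were described by their brightest probe sets, beside a background of 3.82 percent of genes called higher and 0.422 percent called lower, and of 17.1 percent higher and 23.3 percent lower by adjusted p alone. Of 26 measured genes of the amino acid stress response, which Atf4 drives, 1 was called higher and 0 lower, and 5 were higher and 9 lower at an adjusted p under 0.05 alone (median log2 fold change -0.11, against -0.05 over all genes). The called gene was Cth, which makes cysteine from cystathionine and rose by 1.13 (adjusted p = 1.93e-04). The letters TGATGNAA, the core of the C/EBP-ATF element through which Atf4 acts, were present on either strand in the promoters of Slc1a4, Slc38a1 and Slc7a1, 3 of 51 (5.88%), against 3.98% of all promoters.

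Of 29 genes of amino acid sensing by mTORC1, 1 was called higher and 2 lower (median -0.08). Rragd, a Rag GTPase of the lysosomal surface, rose by 1.90 (adjusted p = 3.21e-05), from RMA values of 4.55, 4.88 and 4.33 to 6.28, 6.57 and 6.60. Seh1l, a subunit of the GATOR2 complex, fell by 1.17 (adjusted p = 1.43e-05), and the mTOR inhibitor Deptor fell by 1.501 (adjusted p = 5.99e-07). Among 13 genes of monoamine and acetylcholine metabolism (median -0.03), Hdc, which makes histamine, was the 1 gene called, with RMA values of 6.28, 6.12 and 5.97 in ShControl and 8.80, 8.75 and 8.93 in ShSuz12 samples. Its log2 difference was 2.71 (SE 0.09, adjusted p = 2.98e-07). Of 12 genes of glutathione synthesis (median 0.09), 1 was called: Gclm, the modifier subunit of the rate-limiting ligase, fell by 1.11 (adjusted p = 5.65e-06). Of 18 genes of glutamate and GABA metabolism, 0 reached 2-fold in either direction, and 3 were higher and 5 lower at an adjusted p under 0.05 alone (5 and 6 at an unadjusted p under 0.05, against 20.1 and 29.7 percent of all genes).

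Several called transporters are known from neurons, so markers of other cells were set beside them. The background was 3.82 percent of all genes called higher and 0.422 percent lower, and 17.1 and 23.3 percent by adjusted p alone. At such shares a list of 10 or fewer markers can hold 0 called genes, so that count does not show that a cell type is absent. Of 10 neuronal markers 0 reached 2-fold, and at an adjusted p under 0.05 in limma 2 were higher and 1 lower (median log2 difference 0.06). Tubb3, a neuronal tubulin, rose by 0.42 (adjusted p = 9.88e-04), Syt1, a synaptic vesicle protein, rose by 0.21 (adjusted p = 0.0153), and Stmn2, a regulator of microtubules, fell by 0.48 (adjusted p = 0.00144). The log2 of their summed RMA intensities was 8.79 to 8.87 on ShControl and 8.66 to 8.71 on ShSuz12 arrays, a sum in which Stmn2 had the highest value of the 10 in both groups (means 7.83 and 7.35). The other 9 neuronal markers lay below the array median in both groups.

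Shares of all genes to set beside the counts of the other lists were 3.82 percent called higher and 0.422 percent called lower. By adjusted p alone they were 17.1 and 23.3 percent, and by unadjusted p 20.1 and 29.7 percent. Of 5 enteroendocrine markers 0 reached 2-fold and 0 passed in limma, also at an unadjusted p under 0.05 (summed level 6.69 to 6.78 against 6.61 to 6.64). Of 5 glial markers 0 reached 2-fold and 1 passed, Mbp, which rose by 0.22 (summed level 9.39 to 9.43 against 9.54 to 9.63). Of 4 leukocyte markers 0 reached 2-fold, while Cd68 fell by 0.32 and Itgam by 0.25 (adjusted p = 0.0326 and 0.0371). Of 3 endothelial markers 0 reached 2-fold, and Kdr rose by 0.78 (adjusted p = 1.62e-04). Of 8 fibroblast and smooth muscle markers 4 were called higher, Lum, Col1a2, Col3a1 and Dcn, by 1.32 to 2.46, while Acta2 fell by 0.66 (adjusted p = 4.22e-05). Their summed level was 14.66 to 14.81 on ShControl and 15.24 to 15.30 on ShSuz12 arrays. Of 10 epithelial markers Krt19 and Cdx2 were called higher, by 1.19 and 1.56, while Cdh1 fell by 0.76 (adjusted p = 6.38e-05) and Krt8 by 0.41 (adjusted p = 9.64e-04). The epithelial sum was 12.77 to 12.93 against 12.17 to 12.23, with most of it from Cdh1 (means 12.58 and 11.82), and the median log2 difference of the list was 0.01. The part of such shifts in the transporter results was not tested.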

How the data were processed

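Total RNA of 3 ShControl and 3 ShSuz12 samples was hybridized to Affymetrix RAE230 rat arrays. The authors deposited log2 values from robust multi-array averaging (RMA), which corrects background, applies quantile normalization and summarizes the probes of each probe set; neither detection calls nor depth come with such values, and 3 arrays per group limit their precision. The transporters and gene lists were chosen with earlier results of these data known.

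After 57 control probe sets were left out, 31042 were fitted with limma 3.58.1 (R 4.3.3; lmFit and eBayes, group as the only term), with Benjamini-Hochberg adjustment over all of them. The script was tested on simulated data. Symbols came from the platform annotation: 1 symbol was given for 20826 probe sets, several for 436 and none for 9780. A gene was represented by its brightest probe set over the 6 arrays. Named were called members, the 10 other members with the largest rise and the 10 with the largest fall that passed by their brightest probe set, the brightest member of each family, Suz12 and the called genes of the lists; other names were chosen after their values were seen. Samples of equal replicate number did not deviate together (r = 0.017, -0.042 and -0.064), so numbers were not used as pairs. Alternatives were the methods' t-test, filters on dim probe sets, other scalings and eBayes settings, a replicate block, a 1.5-fold limit, averaging over all probe sets of a gene, and leaving out each array.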

Additional observations from a re-analysis of the deposited data

How the results depend on the processing

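The 6 transporter probe sets remained called by the methods' t-test, with array medians subtracted, after a second quantile normalization, with trend and robust eBayes, with a replicate block and without any 1 array. Filters kept a probe set that lay above a percentile of each array on at least 2 arrays of either group. Slc6a15, Slc6a4, Slc17a6 and Slc43a1 passed the 40th percentile only through their ShSuz12 values, so their calls there add no support. Slc6a15 passed the 60th in that way too. Tests above the 40th percentile left out Slc6a17. Above the 60th percentile, where fewer probe sets were tested, 656 probe sets were called, 556 of them higher. Of the transporters, 1 probe set and 1 gene were then called higher, and 9 probe sets were higher by adjusted p alone. Array medians subtracted gave 194 probe sets called lower, and 22 transporter probe sets lower by adjusted p alone. The matching share of all probe sets by adjusted p alone was not counted. A 1.5-fold limit gave 2681 probe sets called, 1950 higher and 731 lower, with 2 transporter probe sets and 2 genes lower. The direction reversed for Slc18a2 1369131_at (-0.070 with medians subtracted and -0.013 after quantile normalization), for Slc38a2 (0.018) and Slc3a2 (0.012) after quantile normalization, and for the brightest Slc6a17 probe set against the mean of its 5 (0.24). Without 1 array, values ran from -0.012 to 0.10 and from -0.084 to 0.015 for Slc18a2 1369131_at and 1384933_at. They ran from -0.030 to 0.0031 for Slc38a2, from -0.017 to 0.0074 for Slc3a2 and from -0.14 to 0.064 for Slc7a1 1387167_at. Some differences under 2-fold lost their adjusted p without 1 array: Slc6a8 1367810_at in 5 of 6 fits (up to 0.0967, without ShSuz12 replicate 2), Slc6a17 1384303_s_at in 4 (up to 0.0628, without ShSuz12 replicate 3) and Slc7a1 1368392_at in 3 (up to 0.0553, without ShSuz12 replicate 3). Slc38a7 reached 0.151 without ShSuz12 replicate 3 and Slc38a9 0.112 without ShSuz12 replicate 2. In contrast, Slc1a3 1368565_at passed in 1 of the 6 fits, without ShControl replicate 3 (0.0418), and Slc32a1 passed without ShControl replicate 2 (0.0474). Without 1 array, 1068 to 1103 probe sets were called. The replicate block gave 18 transporter probe sets higher and 7 lower by adjusted p and left the 6 calls. Over all alternatives, 482 single-gene values kept direction and side of the threshold, 42 lost it, 16 gained it and 14 reversed. These counts include the t-test's unadjusted p and the mean over a gene's probe sets, where the threshold or the measure itself differs.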
